A study of Drosophila melanogaster with 6 samples.

Results

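The genes described here carry a cell from the choice to become a neural precursor, through the dividing neuroblast, to the newly born neuron. They are sc, ato, ase, dpn, wor, pros, nerfin-1, scrt, elav and fne, 10 genes chosen by name, and every probe set that the platform annotation assigns to 1 of these symbols alone was taken. That gave 9 probe sets, 1 for each of 9 genes, of 13647 probe sets with a single symbol and 18769 tested in all. The gene scrt, which encodes a neuronal zinc finger repressor, has no probe set named for it here and was not analysed here. The other members are all transcription factors except elav and fne, whose products bind RNA.

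The study compared whole Drosophila melanogaster embryos of stages 11 to 16 on Affymetrix Drosophila Genome 2.0 arrays. The 3 wild-type samples were Oregon R embryos, per the design text, and the 3 mutant samples carried the alleles rib1 and ribP7 of ribbon (rib), which encodes a BTB-domain transcription factor that epithelial tubes need to take their shape. In both groups embryos were collected over 8 h, aged for 11 h and picked with an embryo sorter, and 100 ng of total RNA was amplified per array. Each sample thus pools many embryos, tissues and ages. The labels do not say what each allele does to the ribbon transcript, nor whether the 2 genotypes share a genetic background.

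In the fly, proneural factors of the basic helix-loop-helix (bHLH) family give small clusters of ectodermal cells the ability to become neural precursors, and Notch signalling, through E(spl) repressors, restricts this to single cells. A neuroblast then divides asymmetrically and passes Prospero protein to its smaller daughter, where it enters the nucleus and ends division. Proteins such as Nerfin-1 and ELAV mark the postmitotic neurons that follow. In whole embryos, fewer cells of a type and less RNA per cell cannot be told apart.

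Of the 9 measured genes none passed limma's test, which compared 3 mutant with 3 wild-type arrays and adjusted p-values over all 18769 probe sets (threshold 0.05). Over all probe sets 8.87% passed. At an unadjusted limma p under 0.05 there were 2 of the 9 genes, against 25.5% of all probe sets. A change of 1.5-fold or more with an unadjusted p under 0.05, the criterion in the design text, was met by fne, higher in the mutants, and by ato, lower, or 2 of 9. Of all probe sets 13.0% met it, 8.01% higher and 4.97% lower. The groups did not overlap for 4 of the 9 genes, against 35.3% of all probe sets. Each of these counts is within 1 gene of what the background share gives for 9 genes. A plain test without moderated variance also called 0 of the 9 (3.16% of all probe sets), and a fit with the replicate number as a block called 2, elav and fne, against 14.6% of all probe sets under that block.

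The mean differences of the early proneural genes and of the late genes of the lineage had opposite signs. The neuroblast genes between them were mixed in sign, with dpn higher and ase and wor lower. The early proneural genes ato and sc had lower means in the mutants, by 1.26 and 0.48 log2 units, the neuroblast genes ase, wor and dpn lay within 0.35 log2 units of wild type, and the later genes pros, nerfin-1, elav and fne had means that were higher by 0.62, 0.69, 0.99 and 1.83. Of the 9 genes 5 lay above 0, against 35.9% of all probe sets, whose median difference was −0.07. None of these single differences passed the adjusted test, so this order is a description of the means. The order goes by the roles of the proteins, while the arrays measure RNA. The nerfin-1 transcript is also found in neuroblasts, and pros also stands in the list of neuroblast identity genes below.

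**Figure D1:**
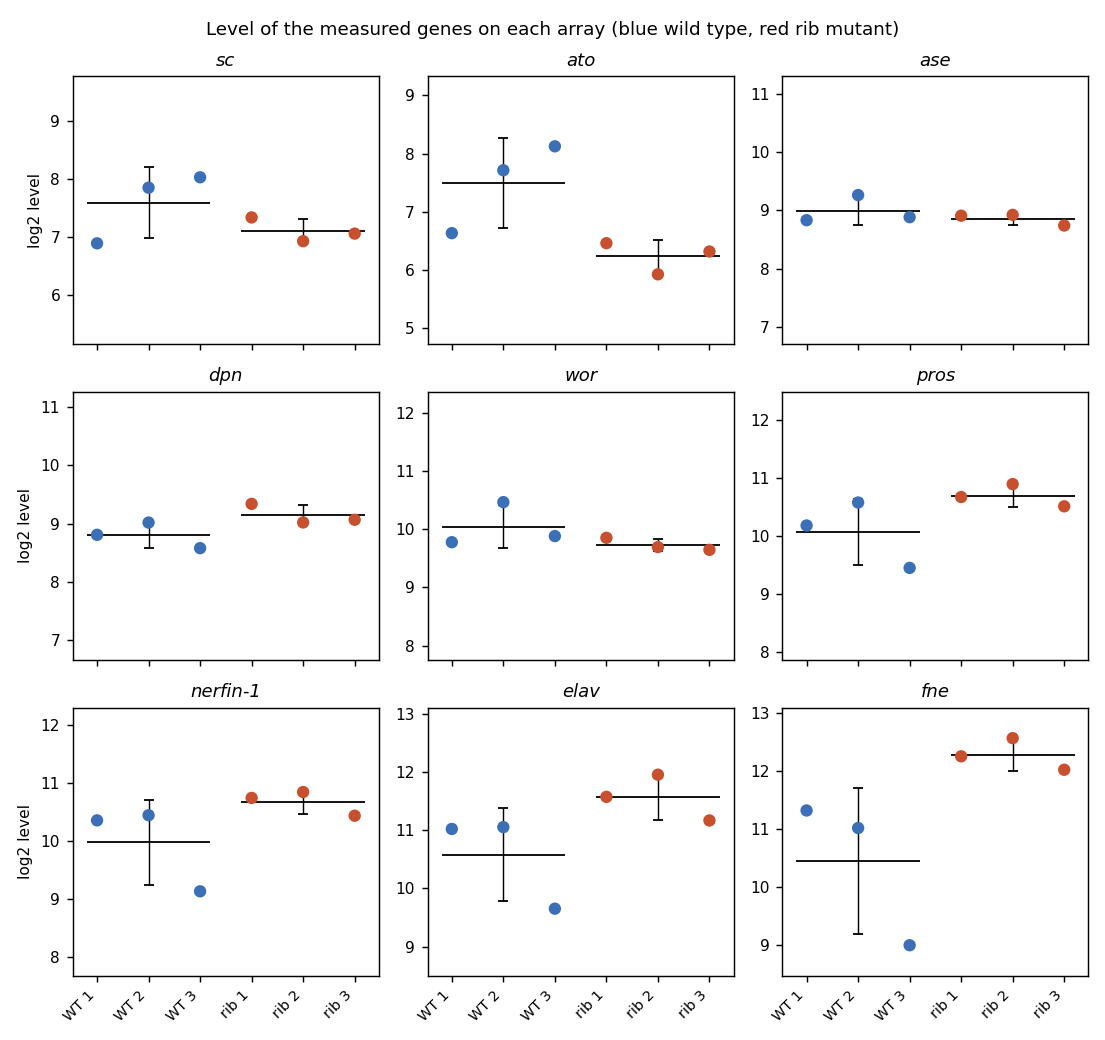
Level of each measured gene on each array, in log2 units on the vertical axis, with wild-type arrays in blue and rib mutant arrays in red. Horizontal lines are group means and bars are ±1 SD (n = 3 arrays each). All panels span the same number of log2 units. The wild-type points of sc, ato, pros, nerfin-1, elav and fne spread over more than 1 log2 unit, whereas the widest mutant spread is 0.79 for elav.

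Atonal, the product of ato, is the proneural factor for chordotonal stretch receptors and photoreceptors. Its probe set read 6.63, 7.72 and 8.13 log2 units in wild-type replicates 1, 2 and 3 and 6.46, 5.93 and 6.32 in mutant replicates 1, 2 and 3. All mutant arrays lay below all wild-type arrays, but wild-type replicate 1 was only 0.17 above the highest mutant array. The mean went from 7.49 ± 0.77 to 6.24 ± 0.28 (SD, n = 3 each), a difference of −1.26 (SE 0.39), 2.39-fold lower, with limma adjusted p = 0.105. Among all probe sets this difference stood at percentile 1.37. Without wild-type replicate 1 the difference was −1.69 with limma adjusted p = 0.00475.

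Scute, the product of sc, is a proneural factor for external sense organs and for central neuroblasts, and also counts X chromosomes in sex determination. Its wild-type values were 6.90, 7.85 and 8.03 log2 units and its mutant values 7.34, 6.93 and 7.06. Wild-type replicate 1 was the lowest of all 6 arrays and the groups overlapped. The mean was 7.59 ± 0.61 in wild type and 7.11 ± 0.21 in the mutants (SD, n = 3 each), a difference of −0.48 (SE 0.31, limma adjusted p = 0.364) with a 95% interval from −1.23 to 0.27. Without wild-type replicate 1 it was −0.83 with limma adjusted p = 0.0153, and without wild-type replicate 3 it was −0.26 (0.681). For sc and ato, leaving out any other single array did not bring the limma adjusted p under the threshold. Without wild-type replicate 1, 3 of the 9 genes passed (sc, ato and fne), against 19.6% of all probe sets, and without wild-type replicate 3 fne alone did, against 9.03%.

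Within the achaete-scute complex, the cluster of related bHLH genes that holds sc and ase, the annotated genes of the RefSeq table (Release 6 plus ISO1 MT) run in the order ac, sc, l(1)sc and ase, with Pgcl between the last pair and several noncoding RNAs between the first. The proneural genes ac and l(1)sc, like sc, had their lowest wild-type value in replicate 1, and their groups overlapped. The level of l(1)sc was 8.32, 9.60 and 10.07 log2 units in wild type and 8.46, 7.89 and 8.06 in the mutants, a difference of −1.19 (SE 0.45, limma adjusted p = 0.163). The gene ac differed by −0.53 (SE 0.49, limma adjusted p = 0.513). Wild-type replicate 1 was the lowest of all 6 arrays for ac, while for l(1)sc it lay above mutant replicates 2 and 3. Without it, l(1)sc differed by −1.70 (limma adjusted p = 0.00580) and ac by −1.07 (0.0390). These 2 genes and amos below were picked for description after their values were seen.

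Asense, encoded by ase, is expressed in neural precursors of both nervous systems once they have been singled out, rather than in proneural clusters. Its level was 8.83, 9.26 and 8.88 log2 units in wild type and 8.91, 8.92 and 8.74 in the mutants. The groups overlapped, and wild-type replicate 2 was the one high array. The difference was −0.14 (SE 0.14, limma adjusted p = 0.550), with a 95% interval from −0.47 to 0.20, so a change beyond 1.38-fold in either direction lay outside the interval. This was the narrowest interval of the 9 genes. Without wild-type replicate 2 the ase difference was −0.00033 (limma adjusted p = 0.999).

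Worniu, encoded by wor, is a zinc finger factor of the Snail family that keeps neuroblasts dividing. It read 9.78, 10.46 and 9.88 log2 units in wild type and 9.85, 9.69 and 9.64 in the mutants. Wild-type replicate 2 stood highest, and the other 2 wild-type arrays lay within 0.24 of every mutant array. The difference was −0.31 (SE 0.19, limma adjusted p = 0.348), with a 95% interval from −0.78 to 0.15. Without wild-type replicate 2 the wor difference was −0.099 (limma adjusted p = 0.603), and with array weights it was −0.62 and passed (0.0270).

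Deadpan, encoded by dpn, is a bHLH repressor of the Hairy and E(spl) group that maintains neuroblast identity. Its level was 8.81, 9.02 and 8.58 log2 units in wild type and 9.34, 9.02 and 9.06 in the mutants. The groups did not overlap, yet wild-type replicate 2 and mutant replicate 2 differed by only 0.0017. The difference was 0.34 (SE 0.15, limma adjusted p = 0.210), with a 95% interval from −0.01 to 0.69.

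Ratios within an array do not change when a constant is added to all log2 values of that array. A normalization that depends on level can still change them. Among the neuroblast genes such ratios were taken for dpn, ase and wor only. Those of fne to elav and of ato to sc are given further below. Of the neuroblast markers left out of the ratios, insc differed by 0.37, close to dpn at 0.34, and mira by −0.04. The log2 ratio of dpn to wor was −0.97, −1.45 and −1.30 in wild type and −0.51, −0.67 and −0.58 in the mutants. The log2 ratio of dpn to ase was −0.02, −0.24 and −0.31 in wild type and 0.43, 0.10 and 0.33 in the mutants. All mutant arrays were higher in both ratios, by means of 0.65 and 0.48 log2 units. The log2 ratio of ase to wor was also higher in all mutant arrays, but differed less, by 0.18. In it wild-type and mutant replicate 1 were nearly equal at −0.95 and −0.94. An exact two-sided permutation test gave p = 0.1 for each, the smallest that 3 against 3 arrays allow, and adjusted p = 0.1 over the 5 ratios computed. The pairs were chosen after the values had been seen, and the ratios compare changes, not amounts of the transcripts, since each comes from different probes.

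Prospero, encoded by pros, is a homeodomain factor that represses neuroblast genes and switches on differentiation genes in ganglion mother cells. Its probe set, of the type that detects several transcripts of a gene, read 10.18, 10.58 and 9.45 log2 units in wild type and 10.67, 10.89 and 10.51 in the mutants. Only wild-type replicate 2 reached into the mutant range. The mean was 10.07 ± 0.57 and 10.69 ± 0.19 (SD, n = 3 each), a difference of 0.62 (SE 0.29), 1.54-fold, with limma adjusted p = 0.237. The mutant array was higher for each replicate number, by 0.49, 0.32 and 1.06. Among the genes with lower mutant means, replicate number 1 went the other way for sc, ase and wor, by 0.45, 0.08 and 0.08. For ato it gave −0.17. With the replicate block the limma adjusted p of pros was 0.0736. Without wild-type replicate 3, the lowest array, the pros difference was 0.31 (limma adjusted p = 0.351).

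Nerfin-1 is a zinc finger factor whose transcript is found in neuroblasts and whose protein appears in new neurons, where it is needed for early axon guidance. The nerfin-1 level was 10.35, 10.44 and 9.13 log2 units in wild type and 10.74, 10.84 and 10.43 in the mutants. Mutant replicate 3 and wild-type replicate 2 met within 0.01, and wild-type replicate 3 was more than 1.2 log2 units below every other array. The difference was 0.69 (SE 0.36), 1.62-fold, with limma adjusted p = 0.281 and 0.0998 with the replicate block. Without wild-type replicate 3 the difference was 0.27 (limma adjusted p = 0.320).

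ELAV, the product of elav, is a nuclear RNA-binding protein found in all neurons that governs alternative splicing and 3' end choice. Its level was 11.02, 11.05 and 9.65 log2 units in wild type and 11.57, 11.95 and 11.17 in the mutants. All mutant arrays were above all wild-type arrays, by as little as 0.11 between mutant replicate 3 and wild-type replicate 2. The mean went from 10.58 ± 0.80 to 11.56 ± 0.39 (SD, n = 3 each), a difference of 0.99 (SE 0.42), 1.99-fold, with limma adjusted p = 0.206. In the fit that pairs arrays by replicate number it passed, with SE 0.20 and limma adjusted p = 0.0387. The mutant array was higher by 0.55, 0.90 and 1.52 for replicate numbers 1, 2 and 3. Without wild-type replicate 3 the difference was 0.53 (limma adjusted p = 0.260).

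FNE (found in neurons), the product of fne, is a close relative of ELAV that also binds RNA in neurons. The fne level was 11.32, 11.02 and 9.00 log2 units in wild type and 12.25, 12.56 and 12.02 in the mutants, so that the lowest mutant array stood 0.70 above the highest wild-type array. It had the largest difference of the 9 genes, from 10.45 ± 1.26 to 12.28 ± 0.27 (SD, n = 3 each), or 1.83 (SE 0.60), 3.56-fold with a 95% interval from 1.29-fold to 9.81-fold. Among all probe sets this difference stood at percentile 98.9. Its limma adjusted p was 0.123, and 0.0496 with the replicate block. Wild-type replicate 3, which was 2.01 log2 units below the next array, made the wild-type SD exceed that of 99.2% of all probe sets. Without it the difference was 1.11 and passed (limma adjusted p = 0.0301), and without wild-type replicate 1 it was 2.27 and passed (limma adjusted p = 0.0460).

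Within each array fne was compared with elav. The log2 ratio was 0.30, −0.03 and −0.65 in wild type and 0.68, 0.61 and 0.85 in the mutants, with no overlap. The ratio was higher in the mutants by 0.84 log2 units (exact two-sided permutation p = 0.1, the smallest possible). The corresponding ratio of ato to sc was lower in the mutants by 0.78 log2 units, with values of −0.26, −0.14 and 0.10 in wild type and −0.88, −1.01 and −0.74 in the mutants (exact permutation p = 0.1). These pairs, too, were chosen after the values had been seen. Any ratio without overlap gives this p, and the permutation did not pair arrays by replicate number.

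**Figure D2:**
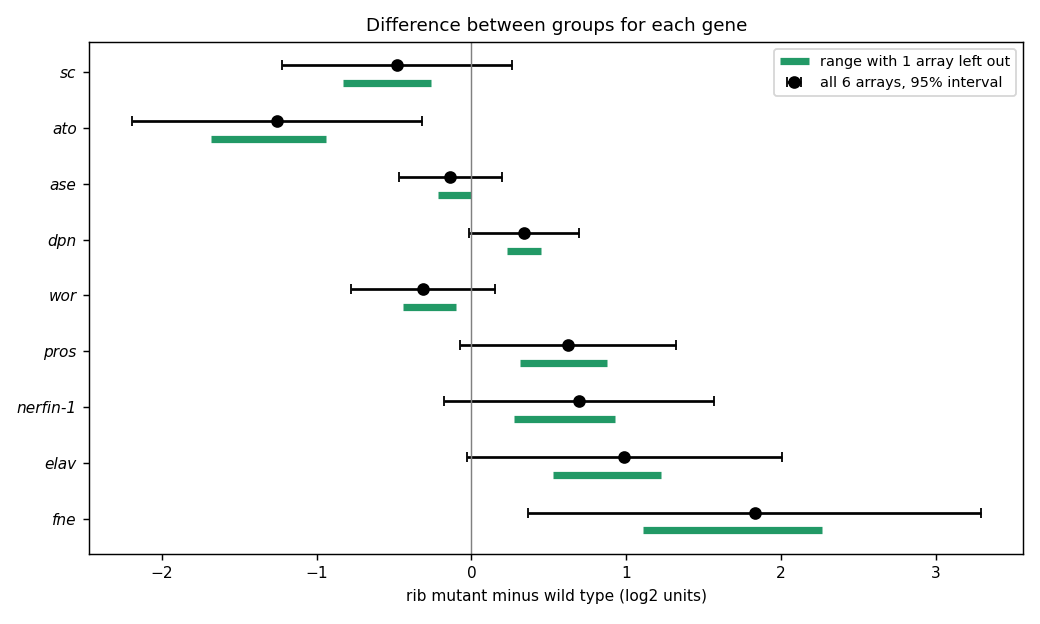
Difference between rib mutant and wild-type means for each gene, in log2 units on the horizontal axis. Black points are the differences over all 6 arrays with limma's unadjusted 95% intervals, and green bars span the differences with any 1 array left out. The intervals of ato and fne leave out 0, those of dpn and elav just reach it, and no green bar crosses 0.

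The spread among the wild-type arrays took opposite forms for proneural and neuronal genes. In wild-type replicate 3, ato and sc stood 1.26 and 0.68 log2 units above their means over all 6 arrays, whereas fne, elav, nerfin-1 and pros stood below theirs, by −2.36, −1.42, −1.19 and −0.93. In wild-type replicate 1 sc and ato stood below their means and fne, elav and nerfin-1 within 0.05 of theirs. The genes ase, wor and dpn stayed within 0.60 of their means on every array. All 9 genes had a larger SD in wild type, with a median of 0.61 against 0.21 in the mutants, as did 80.8% of all probe sets.

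**Figure D3:**
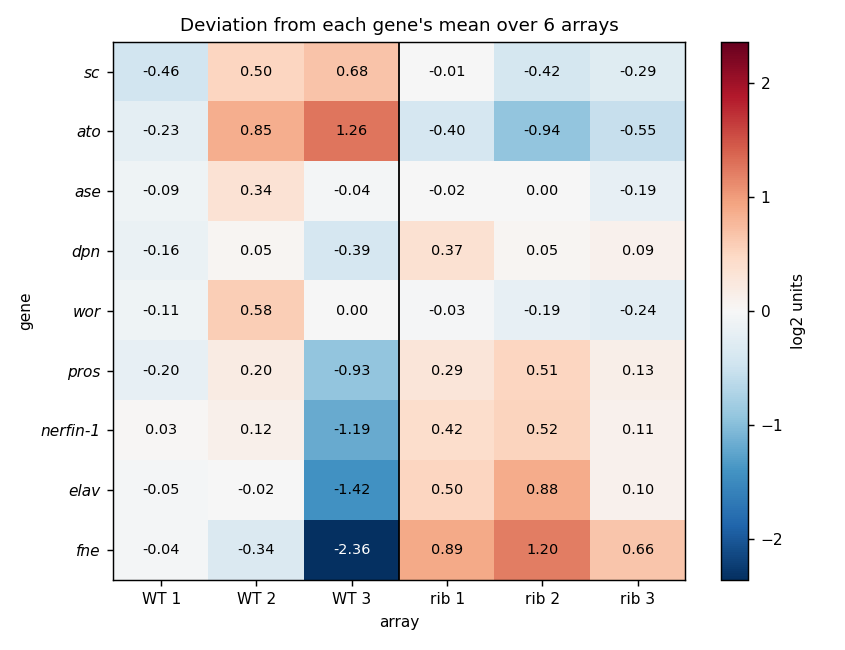
Deviation of each gene on each array from its mean over the 6 arrays, in log2 units, with genes in rows and arrays in columns. Red is above and blue below the mean. Wild-type replicate 3 is highest for ato and sc and lowest for pros, nerfin-1, elav and fne.

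Markers of other processes moved with the same arrays. The mean level of 6 measured cell cycle genes was 10.77, 11.25 and 11.52 log2 units in wild-type replicates 1, 2 and 3 and 10.73 to 10.81 in the mutants, and that of 7 muscle genes was 9.56, 8.20 and 7.04 in wild type and 9.36 to 9.60 in the mutants. By limma's adjusted test 1 of the 6 cell cycle genes fell, PCNA, which encodes the clamp of the replicative polymerases, by 0.94 (SE 0.21, limma adjusted p = 0.0486). That call was lost without wild-type replicate 2 (limma adjusted p = 0.104) and without mutant replicates 1, 2 and 3 (0.131, 0.180 and 0.154), and with median centring it was 0.0505. Among muscle genes 1 of 7 rose, Act87E by 1.92 (SE 0.16). Glial markers averaged 8.80, 8.67 and 8.19 in wild type and 8.76 to 8.89 in the mutants, and 1 of 10 rose, the glutamine synthetase gene Gs2 by 0.96 (SE 0.11). Of the tracheal list 1 of 6 rose (pio, which missed the threshold without mutant replicates 1, 2 and 3, at limma adjusted p = 0.112, 0.118 and 0.0900), of the haemocyte list 1 of 7 (eater), of the fat body list 2 of 5 (FASN1 and Desat1), of the gut list 2 of 6 with 1 fall (Jon65Aiv, Jon65Aiii and Jon44E) and of the epidermis and cuticle list 2 of 6 (Cpr49Ag and Lcp9). The eater mean went from 4.24 to 5.34 log2 units, and both lay below the array medians of 5.51 to 5.56. The haemocyte list had a median of 0.005 with 4 of 7 genes above 0, and NimC1, lz and srp differed by −0.31, −0.18 and −0.08, uncalled. In the fat body list 3 of 5 genes lay above 0, while Lsp2 and Lsd-2 differed by −0.28 and −0.17, uncalled. The epidermis and cuticle list had a median of −0.85 log2 units despite its 2 rises. Its other 4 genes, Osi6, Osi7, sha and TwdlT, differed by −3.21, −1.02, −0.94 and −0.75 and were not called. The part of these tissues and of cell division in the differences of neural genes was not tested.

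Around the 9 genes, 8 lists of neural genes held 93 measured genes, 84 of them not members. Of these 84, 13 rose and 2 fell by limma's adjusted test with 1 probe set per gene, and their median difference was 0.17 log2 units. Over all 11982 genes 839 rose and 509 fell, 11.3% in all, with a median of −0.06.

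Of the 13 rises 10 lay in the lists of RNA-binding and neuronal genes. In the neuronal RNA-binding list of 7 measured genes, which includes elav and fne, 5 rose, none fell and the median was 1.17 log2 units. The measured rise of Syp, whose product opposes Imp in neuroblast timing, was 4.15 (SE 0.24, limma adjusted p = 0.000498), from 4.88 to 9.03 log2 units, while its other probe set gave 0.94 without passing. The wild-type level of Syp lay below the array medians, in a range that can hold mostly background, so the size of the rise may be understated. Rbp9, the third ELAV family gene, rose by 0.61 (SE 0.12, limma adjusted p = 0.0324) from a wild-type level of 5.03, also below the array medians, and its other probe set gave 0.02. The RNA-binding protein genes shep and mub rose by 1.46 (SE 0.27) and 1.17 (SE 0.22). Other probe sets gave −0.13 to 0.34 for shep and 1.36 for mub. Rbp6, a Musashi relative named here because the count is short, rose by 1.13 (SE 0.25), and its other probe sets lay between −0.18 and 0.17. Its limma adjusted p was 0.0508 with cyclic loess. The Syp call held with any array left out. The calls of Rbp9, mub, shep and Rbp6 were lost without mutant replicate 1 (limma adjusted p = 0.133, 0.0913, 0.104 and 0.139), 2 (0.122, 0.107, 0.0932 and 0.114) or 3 (0.108, 0.0878, 0.0507 and 0.0603). Without wild-type replicate 2 Rbp9 and Rbp6 also missed (0.100 and 0.107), and without wild-type replicate 3 mub and Rbp6 did (0.0538 and 0.0863).

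In the list of new and mature neuron genes, 5 of 20 rose, none fell and the median was 1.07 log2 units. Other synaptic genes of the list were not called, among them VGlut, a glutamate transporter gene, at −0.15, and the release and active zone genes Snap25 at 0.69 and brp at 0.34 (limma adjusted p = 0.439, 0.0854 and 0.232). Gad1, which makes GABA, rose from 4.60 ± 0.52 to 6.66 ± 0.04 log2 units (SD, n = 3 each), by 2.06 (SE 0.25). ChAT, which makes acetylcholine, and VAChT, its vesicular transporter, rose by 2.09 (SE 0.29) and 1.45 (SE 0.20), and nSyb, the synaptic vesicle synaptobrevin, by 1.16 (SE 0.20). The calcium channel gene cac, named because the count is short, rose by 1.29 (SE 0.30, limma adjusted p = 0.0497), and its other probe set gave −0.17. With cyclic loess its limma adjusted p was 0.0577. Without mutant replicate 2 ChAT, nSyb and cac missed the threshold (limma adjusted p = 0.0580, 0.0987 and 0.146), as they did without mutant replicate 3 (0.0553, 0.0686 and 0.0615). Without mutant replicate 1 VAChT, nSyb and cac missed (0.0534, 0.0955 and 0.161), without wild-type replicate 2 nSyb and cac (0.0690 and 0.133), and without wild-type replicate 3 cac (0.107). The wild-type levels of Gad1, ChAT, VAChT and cac also lay below the array medians, which ranged from 5.51 to 5.56. Those of elav and fne lay at percentiles 93.0 and 92.1 of all probe sets.

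The proneural and related bHLH list had 11 measured genes, of which 1 rose and none fell, with a median of −0.14 log2 units. The gene that rose was net, a bHLH repressor known from wing veins, by 1.71 (SE 0.18, limma adjusted p = 0.00357). The tap, Oli and amos genes were not called, with differences of 0.60 for tap, a Neurogenin relative, 1.06 for Oli, an Olig relative, and −1.15 for amos, the proneural gene of olfactory sense organs (limma adjusted p = 0.0630, 0.0809 and 0.0959). With the replicate block tap and Oli passed (limma adjusted p = 0.0374 and 0.0266). The amos values of 5.68, 6.36 and 7.08 in wild type and 5.37, 5.12 and 5.19 in the mutants had the arrangement of ato, and without wild-type replicate 1 amos passed at −1.49 (limma adjusted p = 0.00954). Its mutant values all lay below the array medians, in a range that can hold mostly background. Of 9 proneural antagonists the adjusted limma test called none, and none had an unadjusted p under 0.05. Their median was 0.16. The smallest p was that of dpn, described above, followed by E(spl)mdelta-HLH at 0.28 and E(spl)m5-HLH at −0.65 (limma adjusted p = 0.215 each). Without wild-type replicate 1 E(spl)m5-HLH passed at −0.91 (limma adjusted p = 0.0397).

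Of 24 measured neuroblast identity genes, none rose, 2 fell and the median was 0.00 log2 units. Gooseberry (gsb), a Pax factor of segment polarity and of row-specific neuroblasts, fell from 8.59 ± 0.42 to 7.08 ± 0.14 log2 units (SD, n = 3 each), by 1.52 (SE 0.22, limma adjusted p = 0.0115). Its call was lost without mutant replicate 2 (limma adjusted p = 0.0600) and without mutant replicate 3 (0.0558). Dichaete (D), a SoxB factor of the neuroectoderm, fell by 0.46 (SE 0.10, limma adjusted p = 0.0440). Its call was lost without wild-type replicates 2 and 3 (0.115 and 0.0760) and without mutant replicates 2 and 3 (0.177 and 0.165). It was also lost with a trended and robust prior (0.0950), with median centring (0.0549) and without the dimmest 40% of probe sets (0.0543). With arrays scaled on hybridization controls D differed by only −0.077 (limma adjusted p = 0.690). The markers mira and insc, which encode an adaptor and an organiser of asymmetric division, differed by −0.04 and 0.37 and were not called.

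Among 17 asymmetric division genes the adjusted limma test called none. At an unadjusted limma p under 0.05 there were 3, against 30.8% of all genes, and the list median was 0.07 log2 units. The smallest p-values were those of the polarity genes aPKC at 0.50 (SE 0.18) and scrib at 1.15 (SE 0.44). A dimmer probe set of aPKC gave −0.08, and those of scrib ranged from −0.28 to 0.61, the last of them called (limma adjusted p = 0.0242). Of 13 sense organ genes 1 rose, neur, a ubiquitin ligase that activates Notch ligands, by 0.67 (SE 0.13, limma adjusted p = 0.0268), and the median was 0.10. The neur call was lost without wild-type replicate 3 (limma adjusted p = 0.0568) and without mutant replicates 1, 2 and 3 (0.0936, 0.0927 and 0.0730). Of 4 Snail and Scratch family genes only CG12605, for which no role is given here, rose, by 1.75 (SE 0.25, limma adjusted p = 0.0113) from a wild-type level of 4.66 below the array medians, while wor, esg and sna did not pass (median 0.21).

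**Figure D4:**
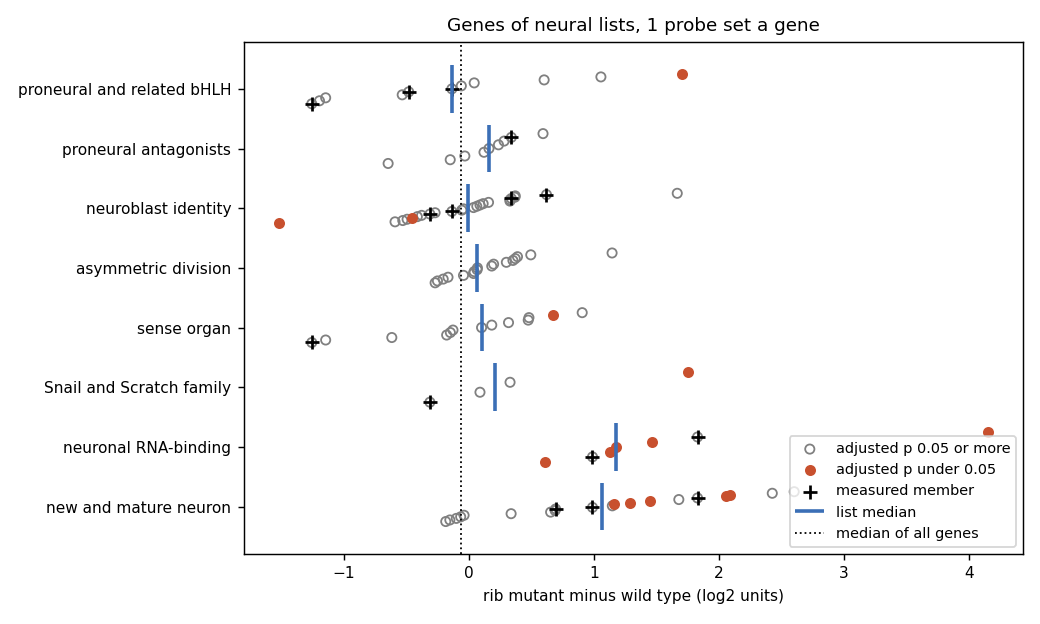
Difference between rib mutant and wild-type means for each gene of the 8 neural lists, in log2 units on the horizontal axis, with 1 probe set per gene. Filled red points passed limma's adjusted test, open grey points did not, crosses mark the measured members, blue bars are list medians and the dotted line is the median of all genes. The neuronal RNA-binding and neuron lists have medians of 1.17 and 1.07, and the other 6 lists lie between −0.14 and 0.21.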

How the data were processed

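The authors deposited 1 log2 value per probe set and array, made with RMA in Partek (version not stated), per the submitters' processing notes. RMA gives all arrays the same distribution, which would remove a shift common to most transcripts, and it compresses differences near background. Detection calls were not used, and 183 control probe sets stayed out of the tests. Symbols came from the platform annotation, and 13544 of 13647 single-symbol probe sets matched a RefSeq gene identifier with the same symbol. Lists used the brightest probe set of each gene.

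The test was limma's (version 3.58.1, R 4.3.3), two-sided on lmFit and eBayes fits, with Benjamini-Hochberg adjustment over 18769 probe sets; it was tested on simulated data. The design text calls the collections independent. The number of arrays limits the precision. Members and lists were chosen with earlier results of these data known. All members were named, and from each list up to 4 called genes per direction, or the 2 with the smallest p. Scan dates were not used here.

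Arrays with the same replicate number deviated together from their group means (r = 0.37, 0.57 and 0.39 across probe sets, against −0.33 to −0.14 for other pairs), so the numbers were taken as pairs on this evidence alone. The labels name nothing that a number shares. The fit without the block was the main one. Other settings tried were that block, array weights estimated gene by gene, a robust prior with a trend, centring on array medians, cyclic loess, hybridization controls as the scale, removal of the dimmest 40%, a plain test, the mean of a gene's probe sets, and each array left out.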

Additional observations from a re-analysis of the deposited data

How the results depend on the processing

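The 9 genes were refitted under 14 alternatives each. Of these 126 values 124 kept their direction, the exceptions being ase (0.24) and wor (0.069) with arrays scaled on hybridization controls, a setting that moved the median difference of all probe sets from −0.07 to 0.31. With each array left out in turn, the number of the 9 genes called by limma ranged from 0 to 3, and the number past the design text's criterion from 0 to 4. Over all probe sets the limma count ranged from 603 to 3674 and among the listed genes from 15 to 56. With the replicate block, 2745 probe sets, 2 of the 9 genes and 42 of 144 listed genes were called, against 1664, 0 and 27 without it, and 5 of the 9 genes met that criterion against 2. The pairing changed no other call of a gene named in the text than those given beside the genes. With array weights, which put most weight on wild-type replicate 2 and mutant replicate 3, the limma counts were 4371 probe sets, 3 of the 9 genes (ato, wor and fne) and 59 listed genes, and 4 genes met that criterion. A plain test called 594 probe sets and 12 listed genes, and it ended the calls of D, gsb, Rbp9, shep, mub, Rbp6, nSyb, ChAT, VAChT, Gad1, cac, CG12605, neur, pio, FASN1 and PCNA. In it 0 of the 9 genes met that criterion. With hybridization control scaling 3202 probe sets were called, 2917 higher and 285 lower, and 6 of the 9 genes met that criterion. The share of all probe sets that met that criterion was taken for the main fit only (13.0%). The counts of the 9 genes past it in other settings thus lack a background share and are not read as results about these genes. VAChT and eater could not be tested without the dimmest 40%, which leaves them out. Signal near background limits the listed genes with a group mean below the array median. Both group means of each of the 9 genes lay above it. The nearest was ato in the mutants, at 6.24 log2 units and percentile 57.7 of all probe sets. Without detection calls, a part of background in that level was not tested.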

Other observations

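Neuroblasts express a series of temporal factors as they divide, in the order Hunchback, Krüppel, Pdm, Castor and Grainy head. None of these genes passed limma's adjusted test. They were picked for description after their values were seen. The cas level was 9.30, 8.84 and 7.51 log2 units in wild type and 10.43, 10.27 and 9.96 in the mutants. All mutant arrays stood above all wild-type arrays, by a mean of 1.67 (SE 0.45, limma adjusted p = 0.0767), and cas passed with the replicate block (limma adjusted p = 0.0248) as well as without wild-type replicate 1 or 3 (0.0209 and 0.0307). The early factor hb differed by −0.59 (SE 0.23, limma adjusted p = 0.175), with groups that overlapped, and passed with the replicate block (0.0343) and without wild-type replicate 1 (0.0486). The genes Kr, pdm2 and nub differed by −0.06, −0.27 and 0.06. The late factor grh differed by −0.53 (SE 0.41, limma adjusted p = 0.450) and passed at −1.02 without wild-type replicate 3 (limma adjusted p = 0.0195).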
